A study of Mus musculus with 6 samples.

Results

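The 10 genes followed here let phagocytes find, bind and swallow apoptotic cells, and were measured in cells washed from the airspaces of mice: the TAM receptors Mertk, Axl and Tyro3, their ligands Gas6 and Pros1, the bridging protein gene Mfge8, the receptors Timd4 and Lrp1, and the engulfment adaptors Elmo1 and Dock2. They were found in the deposited count table by Ensembl gene ID through GENCODE M21, and all 10 were present among 48795 gene rows. The libraries come from bronchoalveolar lavage (BAL) cells of wild-type C57BL/6 mice aged 8 to 12 weeks. According to the series' design text, males and females received cadmium chloride (100 ng/kg) or saline through the trachea and were lavaged 7 days later. The 6 libraries are titled CD170 and CD171, CD174, then CD176, CD177 and CD178; they carry no exposure and no sex in the labels used here, so each is described on its own and no difference is attributed to cadmium. These names are library titles and not surface antigens.

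Clearance of dying cells, or efferocytosis, begins when phosphatidylserine appears on the outer face of an apoptotic cell. GAS6 and protein S, the product of Pros1, attach to this lipid and bridge it to the TAM receptor tyrosine kinases, MFG-E8 bridges it to alpha v integrins, and TIM-4, the product of Timd4, binds it directly. ELMO proteins with DOCK guanine nucleotide exchange factors then activate Rac, which drives the actin movements of engulfment. Alveolar macrophages live in the airspace, take up apoptotic cells and surfactant and are known in mice to carry AXL and MERTK.

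Axl, Lrp1, Pros1, Mertk and Dock2 were abundant in each of the 6 libraries, Elmo1 and Mfge8 were present at lower levels, and Tyro3, Gas6 and Timd4 were at or near the detection limit. Levels are given in CPM, the read count relative to a common library size, with sizes scaled by TMM, the trimmed mean of M-values. In median CPM per kilobase of exon, the order was Axl at 341, Pros1 at 105, Mertk at 73.7, Lrp1 at 62.5, Dock2 at 24.5, Elmo1 at 5.04, Mfge8 at 3.67, Gas6 at 0.196, Timd4 at 0.137 and Tyro3 at 0.0764. On this scale Axl lay above 99.0% of the 12627 genes that passed the count filter (at least 10 counts in at least 3 libraries). Neighbours in the order whose ranges over the libraries overlapped were Mertk and Lrp1, Elmo1 and Mfge8, Gas6 and Timd4, and Timd4 and Tyro3. The ranges of the other neighbouring pairs did not overlap. Genes expressed by several cell types cannot be assigned to macrophages in such bulk libraries, and fewer cells of a type cannot be told apart from less RNA per cell.

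**Figure D1:**
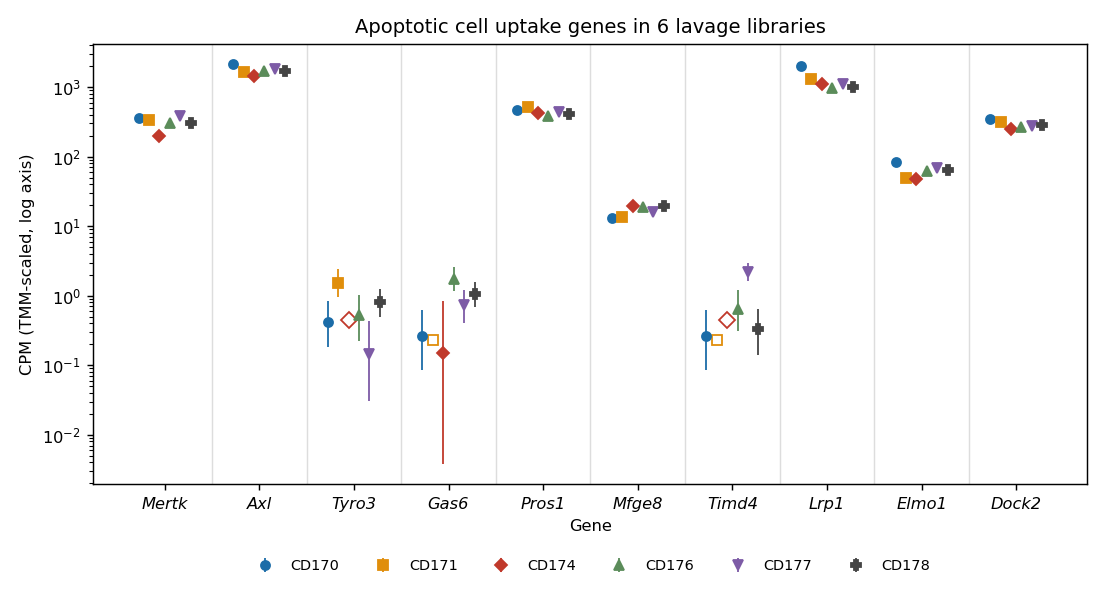
CPM (log axis) of the 10 genes in the 6 libraries, with exact 95% Poisson intervals; open symbols are libraries with 0 counts, drawn at the level that 3 counts would give. Axl lies between 1460.5 and 2130.1 CPM, while Tyro3, Gas6 and Timd4 reach 1.54, 1.76 and 2.20 CPM at most.

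The libraries held 7732244 (CD174) to 23599369 (CD178) gene counts. CD174 and CD171 stand apart: rows that name no gene took 46.0% and 31.9% of their counts, against 18.8 to 20.8% in the other libraries. The alveolar macrophage markers summed to between 24531 and 31671 CPM, with 10 of 10 past the count filter. Most of this sum was Chil3, at 17613 to 23678 CPM, and the other markers had medians from 121 (Fabp4) to 2735 CPM (Ear2). Sums over recruited monocyte markers (4 of 7 past the filter, 13.7 to 33.5 CPM), neutrophil markers (2 of 8, 9.65 to 20.3 CPM), T, NK and B cell markers (2 of 8, 1.64 to 7.15 CPM) and endothelial and mesenchymal markers (4 of 9, 1.43 to 10.96 CPM) were far lower. Ly6g, Elane and Nkg7 from these lists had 0 counts in all 6 libraries, but other genes of the same lists were present in each. Ccr2 was at 10.5 to 22.2 CPM, S100a8 at 5.62 to 13.8, Cxcr2 at 3.61 to 8.83, Cd3d at 0.131 to 2.55 and Trac at 0.232 to 4.32. The 0 counts thus do not show that such cells were absent. Epithelial markers, 9 of 9 past the filter, reached a sum of 3133 CPM in CD174, while the other libraries had 125 to 517 CPM, and red cell markers, 5 of 5 past the filter, ranged from 111 CPM in CD177 to 2882 CPM in CD170.

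Spread between libraries was measured for each gene as the range, the highest minus the lowest log2 CPM. Of the 8 members that passed the count filter, Lrp1 and Gas6 had a range of at least 1. Over all filtered genes, 50.5% had such a range. A range of at least 2 was found for Gas6 alone, against 25.2% of filtered genes. Gas6 passed the filter only through CD176, CD177 and CD178, the libraries where it was highest. Its lowest library, CD171, had 0 counts, so its range depends on the prior count: 3.95 with 2 and 5.88 with 0.5. Among the 8297 genes with a median of at least 10 CPM, 28.9% had a range of at least 1, and of the 7 members in that class 1 did, Lrp1. Mertk was next, at 0.94. The 7 members had a median range of 0.57, and the 8297 genes had 0.74.

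Axl encodes the TAM receptor that prefers GAS6 as its ligand. It was at 2130.1 CPM in CD170, 1843 in CD177, 1719 in CD178, 1712 in CD176, 1641 in CD171 and 1460.5 in CD174. CD170 was highest and CD174 lowest, with a range of 0.54 over all 6 libraries and 0.33 without CD170. Its gene (ENSMUSG00000002602, chromosome 7, 25757273 to 25788705, minus strand, GRCm38) had 9808 counts or more in every library. The counting intervals of CD178 (1703 to 1736 CPM) and CD176 (1691 to 1733 CPM) overlapped.

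Mertk encodes the TAM receptor of resident macrophages that binds both GAS6 and protein S. It was at 385 CPM in CD177, 363 in CD170, 333 in CD171, 305 in CD178, 301 in CD176 and 200.1 in CD174. CD174 stood below the other libraries: its 95% counting interval was 189.6 to 211 CPM and the next lowest library began at 293. Its gene (ENSMUSG00000014361) lies on chromosome 2 (128698956 to 128802894, plus strand). Without CD174 the range of Mertk was 0.36, and with total counts in place of TMM it was 1.22.

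Tyro3, the TAM receptor best known from the nervous system, had 20 counts in CD171 (1.54 CPM), 20 in CD178 (0.821 CPM), 8 in CD176 (0.523 CPM), 8 in CD170 (0.424 CPM), 3 in CD177 (0.146 CPM) and 0 in CD174. The 0 counts in CD174 allow up to 0.447 CPM. The gene (chromosome 2, 119797733 to 119818104) did not pass the count filter. Its highest library, CD171, also had the highest sum over endothelial and mesenchymal markers, 10.96 CPM, while CD174, with 0 Tyro3 counts, had 9.08 CPM; the part of those cells in the Tyro3 counts was not tested.

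A ratio of genes within a library does not depend on library scaling. Per kilobase of exon, Axl exceeded Mertk 6.29-fold in CD174 (95% exact binomial interval 5.94 to 6.66), 5.06-fold in CD170 (4.93 to 5.19), 4.89-fold in CD176 (4.74 to 5.05), 4.85-fold in CD178 (4.73 to 4.97), 4.24-fold in CD171 (4.11 to 4.39) and 4.12-fold in CD177 (4.02 to 4.22). CD174 had the highest ratio, and its interval did not overlap that of any other library. CD171 and CD177 had the lowest ratios, with overlapping intervals. The intervals cover counting error only. Tyro3 reached at most 0.00324 of the Mertk level per kilobase, in CD171. The transcripts of these receptors share no exact run longer than 14 bases.

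Because Axl and Mertk carry most of the TAM receptor transcripts in these cells, their promoters are shown. Each is the 250 bases before the RefSeq start (GRCm38.p6), written 5′ to 3′ on the gene's strand. Capitals mark matches on either strand to 6 motifs: the GC box GGGCGG, the TATA box TATAAA, the AP-1 motif TGANTCA, the ETS core GAGGAA of the PU.1 type, the E-box TCACGTG and the ISRE-type interferon response motif.
Mertk (chr2:128698665-128698914, strand +): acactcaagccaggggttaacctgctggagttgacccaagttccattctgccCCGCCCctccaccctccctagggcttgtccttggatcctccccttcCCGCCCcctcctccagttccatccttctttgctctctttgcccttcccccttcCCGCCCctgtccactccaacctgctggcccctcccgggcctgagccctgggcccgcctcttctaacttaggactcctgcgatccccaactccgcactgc
Axl (chr7:25788734-25788983, strand -): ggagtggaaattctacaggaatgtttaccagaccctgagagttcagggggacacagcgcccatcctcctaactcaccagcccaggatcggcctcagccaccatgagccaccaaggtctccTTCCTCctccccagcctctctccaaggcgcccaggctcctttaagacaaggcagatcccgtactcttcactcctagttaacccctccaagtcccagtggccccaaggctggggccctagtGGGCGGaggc
The Mertk window holds 3 matches to the GC box and none to the other motifs. The Axl window holds 1 GC box, beginning 10 bases before the start, and 1 ETS core. Among 27025 promoters of the same length, 32.9% hold a GC box, 23.1% the ETS core, 12.97% the TATA box, 6.87% the AP-1 motif, 3.15% the E-box and 3.04% the interferon motif. Of the 10 uptake genes, 8 hold a GC box (all but Timd4 and Dock2), 3 the ETS core (Axl, Mfge8 and Dock2) and 1 the TATA box (Elmo1, in the first of its 2 listed promoters), and none holds the other 3. A match describes letters and does not show binding.

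Pros1 and Gas6 are the TAM ligands. Pros1 encodes protein S, a vitamin K-dependent plasma protein that is also made by macrophages. It was at 511 CPM in CD171, 464 in CD170, 435 in CD177, 422 in CD174, 404 in CD178 and 385 in CD176. CD171 was highest and CD176 lowest, and the range was 0.41, or 0.27 without CD171. The gene (ENSMUSG00000022912) lies on chromosome 16 (62854307 to 62929346, plus strand).

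Gas6, the ligand with affinity for each of the 3 TAM receptors, had 27 counts in CD176 (1.76 CPM), 26 in CD178 (1.07 CPM), 15 in CD177 (0.732 CPM), 5 in CD170 (0.265 CPM), 1 in CD174 (0.149 CPM) and 0 in CD171. The libraries CD176, CD177 and CD178 were above the other 3, although the counting interval of CD177, 0.410 to 1.21 CPM, overlapped those of CD170 and CD174, and that of CD178, 0.697 to 1.56 CPM, overlapped that of CD174. The level in CD176 was 7.62-fold the level that 3 counts would give in CD171, which had 0. That fold leaves out the counting error of CD176, whose interval was 1.16 to 2.57 CPM. Gas6 passed the filter only through CD176, CD177 and CD178. Its exons (chromosome 8, 13465374 to 13494490, minus strand) overlap those of Tmem255b on the opposite strand over 34 bases, and without a stated strand setting reads of that overlap cannot be assigned.

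Of the reads counted for both ligands, Gas6 took 0.456% in CD176 (95% exact interval 0.301 to 0.663), 0.263% in CD178 (0.172 to 0.386), 0.168% in CD177 (0.0940 to 0.277), 0.0572% in CD170 (0.0186 to 0.133), 0.0352% in CD174 (0.000892 to 0.196) and 0% in CD171 (up to 0.0557). Nearly all ligand reads thus came from Pros1 in all 6 libraries, and per kilobase of exon Gas6 reached at most 0.00735 of the Pros1 level, in CD176. The transcripts of these ligands share no exact run longer than 12 bases. The promoters of the ligands are printed in the same way, since these ligands differ so much in level.
Pros1 (chr16:62854057-62854306, strand +): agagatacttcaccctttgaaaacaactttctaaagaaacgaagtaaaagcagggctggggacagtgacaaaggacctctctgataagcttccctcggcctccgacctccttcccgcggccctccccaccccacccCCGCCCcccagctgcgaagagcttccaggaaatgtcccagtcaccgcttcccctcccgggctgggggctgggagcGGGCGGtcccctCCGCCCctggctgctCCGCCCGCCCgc
Gas6 (chr8:13494536-13494785, strand -): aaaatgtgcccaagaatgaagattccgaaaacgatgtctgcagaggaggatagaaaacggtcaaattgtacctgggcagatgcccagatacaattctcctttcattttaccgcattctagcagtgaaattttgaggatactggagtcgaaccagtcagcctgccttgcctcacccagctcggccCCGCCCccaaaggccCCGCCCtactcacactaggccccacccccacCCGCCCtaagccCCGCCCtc
Both hold GC boxes, with 5 matches in the Pros1 window, of which the last 2 overlap, and 4 in the Gas6 window. Neither holds another of the 6 motifs.

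The genes whose pattern over the 6 libraries was most like that of Gas6 were Mmp12, Gm42047 and Cmbl. Likeness was the root mean square difference between log2 CPM values centred on each gene's mean, over 8297 genes with a median of at least 10 CPM, whose median difference from Gas6 was 1.36. It was 0.39 for Mmp12, the macrophage elastase, 0.53 for Gm42047 and 0.59 for Cmbl. Mmp12 was at 20.6 CPM in CD176, 18.6 in CD178, 14.6 in CD177, 6.21 in CD170, 2.08 in CD174 and 1.70 in CD171. Its likeness to Gas6 was the reason for its choice, so its order of libraries is a description only. With so few Gas6 counts the order of its neighbours is uncertain.

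Mfge8 encodes MFG-E8, a secreted protein that joins phosphatidylserine to alpha v integrins. It was at 19.7 CPM in CD178, 19.4 in CD174, 18.7 in CD176, 15.8 in CD177, 13.7 in CD171 and 13.2 in CD170. Its order was unlike that of the abundant receptors, since CD170 was lowest and CD178 highest. The counting intervals of CD170 (11.6 to 15.0 CPM) and CD178 (17.9 to 21.5 CPM) did not overlap, and the range was 0.57. The gene lies on chromosome 7 (79133768 to 79149060, minus strand). The 3 libraries with the highest Mfge8 also had the highest epithelial marker sums, at 3133 CPM in CD174, 517 in CD178 and 442 in CD176, against 125 to 234 CPM in the others. The part of epithelial RNA in the Mfge8 counts was not tested. Its integrin partners differed: Itgb5 had a median of 309 CPM, while Itgb3 had at most 8 counts.

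Timd4, a phosphatidylserine receptor known from long-lived tissue macrophages, had 45 counts in CD177, 10 in CD176, 8 in CD178, 5 in CD170 and 0 in both CD171 and CD174. CD177 stood alone, at 2.20 CPM (1.60 to 2.94) against 0.653 CPM in the next library, CD176. The CD177 level was 4.92-fold the level that 3 counts would give in CD174 and 9.48-fold that in CD171. These folds leave out the counting error of CD177. The gene (chromosome 11, 46810800 to 46844332, plus strand) did not pass the filter. Of the 6 peritoneal-type macrophage markers, which include Timd4, 1 passed the filter, Icam2, at 0.772 to 6.85 CPM. Folr2 had 0 counts in every library, Lyve1 at most 1, Selp at most 12 and Gata6 at most 16, and the list summed to 6.85 CPM in CD174, the highest, 4.83 CPM in CD177 and 1.70 CPM in CD171, the lowest. The part of such cells in the Timd4 counts was not tested.

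Lrp1 encodes a very large endocytic receptor that recognises calreticulin on apoptotic cells, among many ligands. Its level reached 2010.5 CPM in CD170, 1302 in CD171, 1111 in CD177, 1104 in CD174, 1000.2 in CD178 and 957 in CD176. CD170 stood above the other 5 libraries, 2.10-fold over the lowest. The gene (ENSMUSG00000040249) lies on chromosome 10, 127538161 to 127621148, minus strand. The range was 1.07 over all libraries and 0.45 without CD170. Measured within each library, the ratio of Lrp1 to Axl per kilobase was 0.268 in CD170, 0.225 in CD171, 0.215 in CD174, 0.171 in CD177, 0.165 in CD178 and 0.159 in CD176. Thus CD170, CD171 and CD174 lay above the other 3 libraries on a scale free of the library scaling factor, although this pair was chosen after its values were seen. The ratio is not free of effects of transcript length. The longest transcripts have 14888 bases for Lrp1 and 4265 for Axl, and the part of length was not tested.

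**Figure D2:**
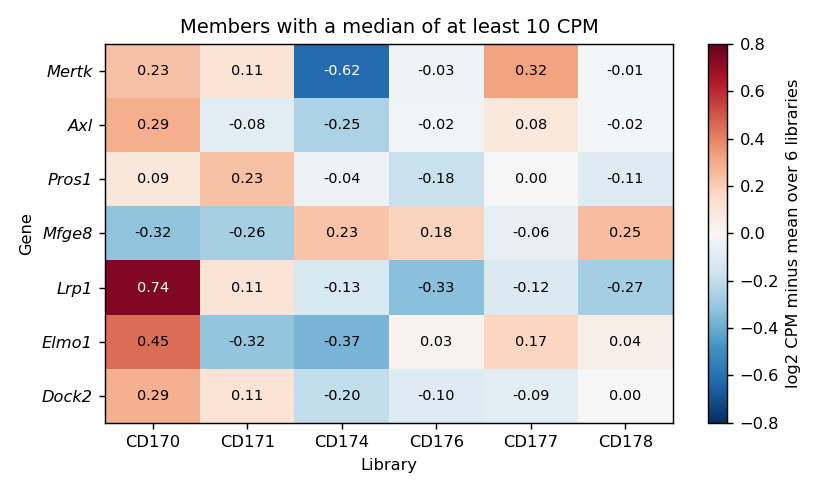
log2 CPM of the 7 members with a median of at least 10 CPM, minus each gene's mean over the 6 libraries (rows genes, columns libraries, colour and number the difference). Lrp1 in CD170 (0.74) and Mertk in CD174 (-0.62) are the cells farthest from 0.

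The genes whose pattern was most like that of Lrp1 were Snrnp200, a spliceosomal helicase (root mean square difference 0.15), Notch2, a receptor (0.15), and Tln1, which encodes the integrin-linked protein talin 1 (0.16), against a median of 0.43 over 8296 genes. In CD170 Snrnp200 was at 184 CPM, Notch2 at 280.0 and Tln1 at 634, the highest library for each, which their choice by likeness fixes in large part. Among partners of LRP1, Calr, which encodes calreticulin, had a range of 0.40, Lrpap1, the receptor's chaperone, had a range of 0.44, and Snx17, an adaptor that binds its tail, had a range of 0.38. A2m, also in that list, had 0 counts.

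Dock2 encodes the haematopoietic Rac activator that pairs with ELMO1. Its level was 352 CPM in CD170, 311 in CD171, 288 in CD178, 272 in CD177, 269 in CD176 and 252 in CD174. CD170 was highest, CD174 lowest, and the range was 0.48, or 0.30 without CD170. Elmo1, its adaptor, was at 84.2 CPM in CD170, 69.7 in CD177, 63.7 in CD178, 63.1 in CD176, 49.6 in CD171 and 47.7 in CD174. CD171 and CD174 were below the other libraries, with a range of 0.82 over all 6 and 0.54 without CD170. Per kilobase of exon, Elmo1 was 0.145 of Dock2 in CD171 (95% interval 0.133 to 0.157) and 0.233 of it in CD177 (0.220 to 0.247), intervals that cover counting error and not the variation between libraries. That pair too was compared after its values were seen.

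Elmo1 lies on chromosome 13 (20090596 to 20608353, plus strand) and Dock2 on chromosome 11 (34226815 to 34783892, minus strand). Antisense genes on the opposite strand overlap 3.20% of the Elmo1 exon bases (Gm32036) and 4.03% of those of Dock2 (4930403D09Rik). The longest exact run shared with a relative was 22 bases for Elmo1 with Elmo2 and 28 bases for Dock2 with Dock1. The Dock2 promoter is printed because it is the one window among the 11 of the 10 genes with 2 ETS cores, and it holds no GC box.
Dock2 (chr11:34783906-34784155, strand -): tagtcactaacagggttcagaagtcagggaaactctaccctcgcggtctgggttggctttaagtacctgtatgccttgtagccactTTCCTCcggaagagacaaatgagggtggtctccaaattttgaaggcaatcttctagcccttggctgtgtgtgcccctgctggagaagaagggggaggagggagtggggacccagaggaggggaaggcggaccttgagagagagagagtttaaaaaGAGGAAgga
Of their relatives, Elmo2 had a median of 166 CPM and Dock1 of 42.5 CPM, while Elmo3 had at most 69 counts in any library.

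**Figure D3:**
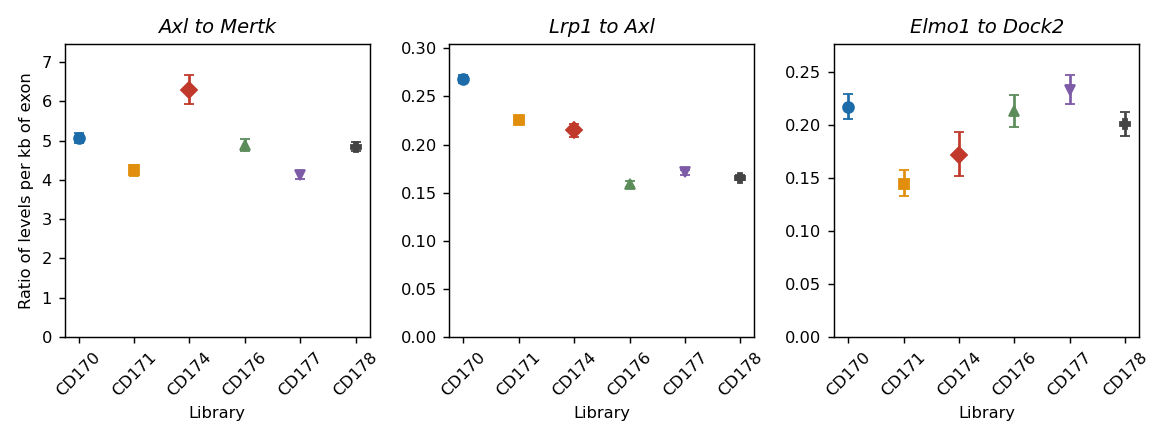
Ratio of levels per kilobase of exon within each library, with exact 95% binomial intervals of the count split, on axes from 0. Axl to Mertk is highest in CD174 (6.29), Lrp1 to Axl is highest in CD170 (0.268) and Elmo1 to Dock2 is lowest in CD171 (0.145).

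Of the 7 members with a median of at least 10 CPM, 4 (Axl, Lrp1, Elmo1 and Dock2) were highest in CD170, where 17.2% of the 8297 genes with a median of at least 10 CPM were highest. Another set of 4 (Mertk, Axl, Elmo1 and Dock2) were lowest in CD174, where 36.1% of these genes were lowest. Pros1 was highest in CD171 (21.1% of these genes), Mertk in CD177 (13.2%) and Mfge8 in CD178 (10.1%), while no member was highest in CD174 (29.1%) or CD176 (9.28%). Pros1 and Lrp1 were lowest in CD176 (9.16%) and Mfge8 in CD170 (9.79%). Transcript length moved with these libraries. In CD174 the median gene whose longest transcript was under 2000 bases lay 0.32 (log2 CPM) above the median of the other 5 libraries, and the median gene of 8000 bases or more lay 0.33 below it. Genes of 4000 to 8000 bases, the class of Mertk, Axl, Elmo1 and Dock2, had a median of -0.22 in CD174, beside -0.74 for Mertk, -0.42 for Elmo1, -0.24 for Axl and -0.19 for Dock2. Genes of 2000 to 4000 bases had a median of -0.05 in CD174, beside -0.04 for Pros1 and 0.29 for Mfge8. In CD170 genes of 8000 bases or more had a median of 0.09, beside 0.87 for Lrp1, whose longest transcript has 14888 bases. In CD174, where that class was at -0.33, Lrp1 was at -0.01, and in CD177, where it was at 0.13, Lrp1 was at 0.01. The part of transcript length in these differences was not tested. The longest transcripts of Axl and Mertk have 4265 and 4302 bases.

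**Figure D4:**
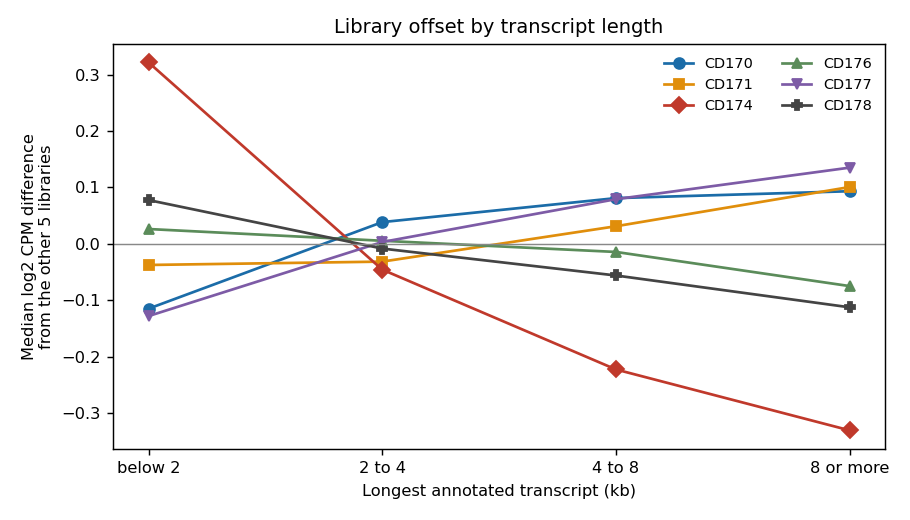
Median log2 CPM difference of each library from the median of the other 5, for 1605, 3389, 2815 and 483 genes in 4 classes of longest transcript (kb). CD174 falls from 0.32 to -0.33 with length, and the other libraries stay between -0.13 and 0.13.

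A wider set of 84 efferocytosis genes was examined beside the members. Of these, 70 passed the filter and 26 of them (37.1%) had a range of at least 1, against 50.5% of all filtered genes. Of the 56 with a median of at least 10 CPM, 12 had such a range, against 28.9% of the 8297 genes in that class. Among 8 genes that regulate the TAM axis, 4 had such a range, of which Vkorc1 and Socs1 had medians of only 2.29 and 1.91 CPM. Adam17, the sheddase that cleaves MERTK, had a median of 196 CPM and a range of 0.39, and Adam10, a related protease, 214 CPM and 0.88. Ggcx encodes the carboxylase that vitamin K-dependent proteins such as protein S and GAS6 need. It was widest in that list at a median of at least 5 CPM, from 5.02 CPM in CD171 to 17.6 CPM in CD174.

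Of the other uptake receptors, 7 of 10 past the filter had a range of at least 1, against 50.5% of all filtered genes. Stab1, Scarf1 and Ager among them had medians of only 0.847, 3.51 and 4.94 CPM. The rest were Cd300lf, Itgav, Cd300lb and Msr1, with medians of 183, 43.0, 28.9 and 22.3 CPM. Their ranges were 1.73, 1.46, 2.17 and 1.43, and 28.9% of genes with a median of at least 10 CPM had a range of at least 1. The most abundant of the list, Cd36, Itgb5 and Scarb1, had medians of 413, 309 and 187 CPM and ranges of 0.63, 0.51 and 0.62. Cd300lb, an activating phosphatidylserine-binding receptor of myeloid cells, had the widest range in that list at a median of at least 5 CPM, from 13.6 CPM in CD174 to 61.5 CPM in CD176. Of the other bridging proteins, 6 of 7 had a range of at least 1. These were C1qa, C1qb, C1qc and Thbs1, with medians of only 1.75 to 2.93 CPM, and the surfactant protein genes Sftpa1 and Sftpd. Lgals3, galectin 3, was abundant (1053 to 1731 CPM), whereas the surfactant proteins Sftpa1 (4.71 to 216 CPM) and Sftpd (2.49 to 34.4 CPM) were highest in CD174, the library with the highest epithelial sum, to which Sftpa1 itself belongs.

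In the engulfment machinery, 1 of 10 genes past the filter had a range of at least 1, Elmo3, which had few counts. Over all filtered genes the share was 50.5%, and over those with a median of at least 10 CPM it was 28.9%. Rac1, the GTPase that ELMO and DOCK proteins activate, had a median of 676 CPM and a range of 0.35, Abr, a regulator of Rac, 331 CPM and 0.38, and Rhog, an upstream GTPase, 257 CPM and 0.87. None of the 4 genes of LRP1 partners past the filter, and none of the 4 that encode inhibitory signals, had a range of at least 1. Sirpa, the receptor for CD47, was at a median of 1879 CPM, Cd47 at 811 and Pirb at 200.4, and Cd24a was the widest at 0.84. For phagosome maturation 2 of 12 genes had a range of at least 1. Cybb, the oxidase subunit used in LC3-associated phagocytosis, had a median of 1409 CPM, Lamp1 959 and Rab7 304, and Uvrag was widest, from 20.3 CPM in CD174 to 50.6 CPM in CD177.

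Genes that handle swallowed lipid or follow uptake had a range of at least 1 in 3 of 11 cases, against 28.9% of genes with a median of at least 10 CPM. Ucp2, a mitochondrial carrier, had a median of 2549 CPM, Abcg1, a sterol exporter, 2214 CPM and Tgfb1, an anti-inflammatory cytokine, 447 CPM. Slc2a1, a glucose carrier, was the widest, from 13.7 CPM in CD171 to 35.7 CPM in CD174. Of 4 find-me receptors, P2ry2, a nucleotide receptor, was steady at a median of 49.2 CPM with a range of 0.33, while Gpr132 and Cx3cr1 had medians of 2.52 and 1.27 CPM.

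**Figure D5:**
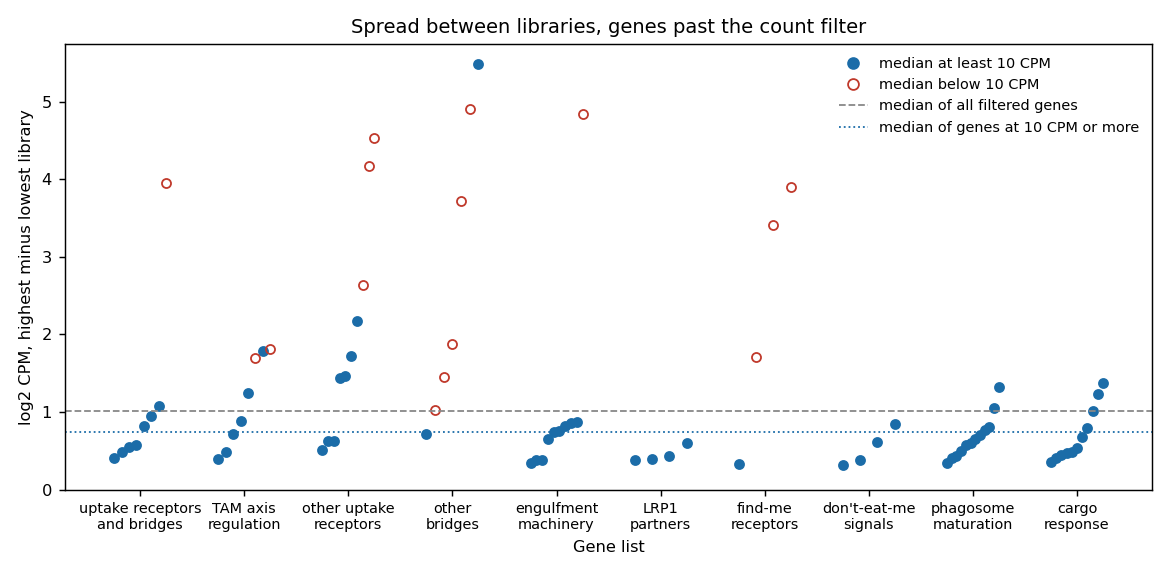
Range (highest minus lowest log2 CPM over the 6 libraries) of each gene past the count filter, for the 8 members and 9 wider lists; filled points have a median of at least 10 CPM, and the lines are the medians of all filtered genes (1.01) and of those at 10 CPM or more (0.74). Gas6, at 3.95, is the member farthest above the lines, and its value depends on the prior count.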

How the data were processed

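RNA of BAL cells was sequenced in 6 libraries. The authors deposited raw read counts per gene, whole numbers without normalization. HTSeq 0.11.2, STAR 2.7.1a, Trim Galore 0.6.2 and bcl2fastq 2.18.0.12, with GRCm38, are named in the submitters' processing notes. The annotation release is not stated there, nor is the strand setting. Of 48795 gene IDs, 48435 matched GENCODE M21 with the version ignored. The 5 summary rows stayed out of library sizes and tests.

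TMM factors and log2 CPM (prior count 2) came from edgeR 4.0.16 in R 4.3.3. Levels per kilobase used merged exon length. Python 3.11.15, pandas 2.3.3, numpy 2.4.6, scipy 1.17.1 and matplotlib 3.10.9 did the rest. No library has a group, so no differential expression test was run. Library differences were not tested for any cause. Whether libraries share an animal is not known. The range measure was checked on simulated counts. Intervals cover counting error only; 0 counts allow up to 3 counts, 0.123 (CD178) to 0.447 CPM (CD174).

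The members, lists and rules were chosen with earlier results of these data known. Wider-list genes were named as the 3 highest medians in a list and the widest range at a median of at least 5 CPM; likeness was computed for members with a range of at least 1. Some genes that the rule names are not reported here. Genes named outside these rules were chosen after their values were seen. They are Itgb3, Itgav, Cd300lf, Msr1, Icam2, Selp, Elmo2, Elmo3, Dock1, wider-list genes with medians below 5 CPM and the single marker genes of the cell types. The transcript length classes and the ratios of Lrp1 to Axl and Elmo1 to Dock2 were also chosen in this way. Promoters are from RefSeq (GRCm38.p6), matched by symbol for 10 of 10 members.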

Additional observations from a re-analysis of the deposited data

Results flagged for a closer look

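For the 10 genes and the 5 ratios, the gap between the most extreme library and its nearest neighbour was compared with the whole range, against Dixon's 95% critical value for 6 values; chance passes about 1 in 20 sets of values. Of these 15 measures 2 exceeded it. For the genes this was done on CPM, and not on the log2 CPM used for the ranges above. Lrp1 was at 2010.5 CPM in CD170, with 1302 CPM in the next library, a gap of 0.673 of the range. In log2 CPM Lrp1 was at 10.97 in CD170, 10.35 in CD171 and 9.90 in CD176, the lowest. There the gap is a smaller part of the range and stays below the critical value, so the Lrp1 flag holds for CPM only. Timd4 was at 2.20 CPM in CD177, with 0.653 CPM in the next library, a gap of 0.703 of the range. This rests on 45 counts in CD177. Timd4 did not pass the count filter, so its flag was not examined in log2 CPM and is likewise given for CPM only.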

How the results depend on the processing

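No paired analysis was possible because the libraries carry neither groups nor pair numbers. Of the members, 2 of 8 had a range of at least 1, and 1 reached 2. With total counts 4 members had a range of at least 1 (Mertk and Elmo1 added), a scaling that shifted the median gene by -0.20 (log2) in CD174 and by at most 0.08 in any other library. Without the filter 4 of 10 had a range of at least 1 and 3 reached 2, as Tyro3 and Timd4 entered; with at least 10 counts in each library these were 1 and 0 of 7, as Gas6 left. DESeq2 1.42.0 size factors and a prior count of 0.5 left both counts as they were. With each library left out in turn, 1 to 2 members had a range of at least 1 and 0 to 1 reached 2: Lrp1 dropped to 0.45 without CD170, and Gas6 failed the filter without CD176, CD177 or CD178. Without CD170 and CD174, added after seeing the data, Lrp1 had 0.44. Among all filtered genes, 6376 (50.5%) had a range of at least 1. This was 13820 of 22077 (62.6%) without the filter and 3825 of 10062 (38.0%) with at least 10 counts in each library. Leaving out 1 library gave 3863 (31.0%, without CD174) to 5820 (47.4%, without CD176). Without CD171 and CD174 it was 2065 of 12238 (16.9%), beside 2 of 8 members (25%). Of the wider genes it was 26 of 70 (37.1%), and 20 (28.6%) to 26 (37.1%) when leaving out 1 library. It was 13 of 70 (18.6%) without CD171 and CD174. The log2 span of the Axl to Mertk ratio was 0.61, and 0.30 without CD174. With the longest transcript as gene length, 8 of 10 members kept their place in the order of levels, while Lrp1 and Mertk exchanged theirs. Apart from filters and left-out libraries, the cause was not tested. Depth limits what can be said of Tyro3, Gas6 and Timd4.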

Other observations

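Several genes that serve apoptotic cell uptake in other tissues had no or almost no reads here. Adgrb1, a phosphatidylserine receptor, Megf10, a receptor known from astrocytes, the bridging protein genes Edil3, Tub and Mbl2, and Il10, a cytokine linked to efferocytosis, had 0 counts in all 6 libraries. Stab2 and Tulp1 had at most 2 counts in any library. C1qa, C1qb and C1qc, which encode the chains of the bridging complement protein C1q, were at medians of 2.57, 1.75 and 2.29 CPM.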
